A study of Mus musculus with 24 samples.

Results

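The mature oligodendrocytes of the cortex were the nuclei of the cortical libraries that were selected on their own UMIs (unique molecular identifiers, counts of captured RNA molecules) of 5 marker genes. A nucleus was taken when it had over 500 and under 7000 genes, under 20% mitochondrial UMIs, at least 1500 UMIs in all, and at least 8 summed UMIs of Mog, Mag, Mobp, Aspa and Prr5l. It also had 0 UMIs of the neuronal gene Rbfox3, the microglial gene Csf1r, the astrocyte gene Aqp4 and the endothelial gene Cldn5, and at most 1 UMI of the precursor gene Pdgfra. These limits gave 5610 nuclei of the 41761 cortical nuclei with at least 1500 UMIs. In the whole series, 204925 nuclei passed the limits on genes and mitochondrial share, and 79967 of them were cortical. The same limits found 26327 mature oligodendrocyte nuclei in the deep brain, and 36151 cortical nuclei with at least 1500 UMIs were not selected.

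Mature oligodendrocytes wrap axons in myelin, a stack of membrane rich in cholesterol and galactolipids that is held together by proteins such as myelin basic protein. They also supply axons with metabolites, couple to astrocytes through gap junctions and hold much of the brain's iron. Under inflammation, demyelination and ageing, oligodendrocytes are known to express immune genes, among them complement C4 and class I major histocompatibility complex (MHC) genes.

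The series profiled nuclei of Pdgfb ret/ret mice and Pdgfb ret/wt controls of the strain B6.Pdgfbtm3Cbet. In the ret allele, the motif that retains the growth factor PDGF-B at the cell surface is deleted in the germ line, so it is missing in every cell of the animal, and the controls carried 1 ret allele as well; mice without a ret allele were not part of the design. Homozygous mutants have few pericytes, a leaky blood-brain barrier and calcified vessels in deep brain regions. Each of 6 mutants and 6 controls gave a cortical piece, which held the cerebral cortex and the hippocampus, and a deep brain piece of pallidum, interbrain, midbrain and pons. All mice were female except control 6, which was male, and they were aged between 4 months 7 days and 5 months 18 days without any further treatment. Each library came from 1 mouse, so the mouse was the replicate in comparisons within 1 region. Fits over both regions took both libraries of a mouse as separate units, except where a mouse block is named.

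The 12 cortical libraries held 133 to 1602 mature oligodendrocyte nuclei each, 2170 in the 6 control libraries and 3440 in the 6 mutant libraries. Among the cortical libraries, those of mutant 5, control 5 and mutant 6 stood apart: 93.8 to 96.7% of their nuclei reached 1500 UMIs, against 16.6 to 74.5% in the other 9. The 12 deep brain libraries were at 94.8 to 97.0%, so by this measure it was the other 9 cortical libraries that lay below the rest of the series. These 3 libraries held 69.1% of all selected nuclei, which was 77.4% of the mutant and 55.9% of the control ones. The median UMI count per selected nucleus was 2128 to 2849 in them. In the other 9 it was 3824 to 4167 in the 5 controls and 4847 to 5948 in the 4 mutants, with no overlap, so counts of nuclei that were not thinned compare deeper mutant with shallower control nuclei there. Summed UMIs of the selected nuclei per cortical library ran from 595838 to 4285668, out of library totals of 23625232 to 95605387. At most 2 selected nuclei per pair of cortical libraries carried the same barcode. The numbers of genes called by genotype in the cortex, the named calls and the pooled counts of nuclei are also given without them.

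Genes outside the selection were used to check the name. Mbp, which encodes myelin basic protein, was at 4362, 4843 and 5468 CPM (UMIs of the gene over the summed UMIs of the selected nuclei, as counts scaled to a common total; lowest, median and highest library) in the selected nuclei of controls and at 4520, 4891 and 5241 in mutants. The groups overlapped. Cnp, which encodes a myelin-associated phosphodiesterase, was at 298.6 to 460.5 in controls and 288.3 to 385.1 in mutants, and Sox10, the transcription factor of the lineage, was at 231.3 to 312.2 and 176.1 to 248.5. The sum over 10 such genes was 17350 to 25170 in controls and 17360 to 21020 in mutants.

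Markers of other cell types were summed as well, each list over its own genes. Neuronal genes (8) summed to 1427 to 2184 CPM in controls and 993.1 to 2215 in mutants, and 6 astrocyte genes to 375.8 to 492.6 and 276.7 to 432.8. Microglial genes, 6 in all, summed to 64.83 to 152.7 in controls and 59.79 to 113.3 in mutants. Precursor genes (6) summed to 104.1 to 231.3 and 92.21 to 270.0, and 7 of the 8 genes of newly forming oligodendrocytes (Tmem2 matched no symbol of the files) to 883.6 to 1456 and 851.4 to 1436. Endothelial genes (5) stayed at 1.434 to 8.061 and 3.04 to 6.067, and mural genes (4) at 3.357 to 24.52 and 2.27 to 13.04, with Kcnj8 at 0 in all 6 mutant libraries. Rbfox3, Csf1r, Aqp4 and Cldn5 were at 0 by the selection. In every one of these lists, the genotypes overlapped in the selected nuclei. In controls, the cortical nuclei that were not selected had 11020 to 12870 CPM of the neuronal, 1109 to 1272 of the astrocyte and 627.9 to 875.5 of the precursor genes. They had 124.2 to 225.0 of the microglial and 14.96 to 31.99 of the mural genes, ranges that overlapped those of the selected nuclei. Endothelial genes were at 17.63 to 31.37 there, and genes of newly forming oligodendrocytes at 75.22 to 117.0, below the selected nuclei.

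Nuclei just inside and just outside the limit on the markers were set side by side. There were 89 cortical nuclei at the lowest accepted sum of 8 and 87 at a sum of 7 that met all other limits. In the library of mutant 5, the 29 nuclei at 8 had 4799 Mbp CPM and the 28 at 7 had 4491, while Snap25, a gene of neuronal synapses, was at 141.7 and 116.0. In the library of control 5, with 42 nuclei on each side, Mbp was at 4201 inside and 4466 outside, and Snap25 at 300.1 and 200.9, against 150.8 over all its selected nuclei. A further 1947 cortical nuclei had at least 8 marker UMIs but were left out by another limit, 744 of them in controls and 1203 in mutants, and these are counted among the nuclei that were not selected.

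**Figure D1:**
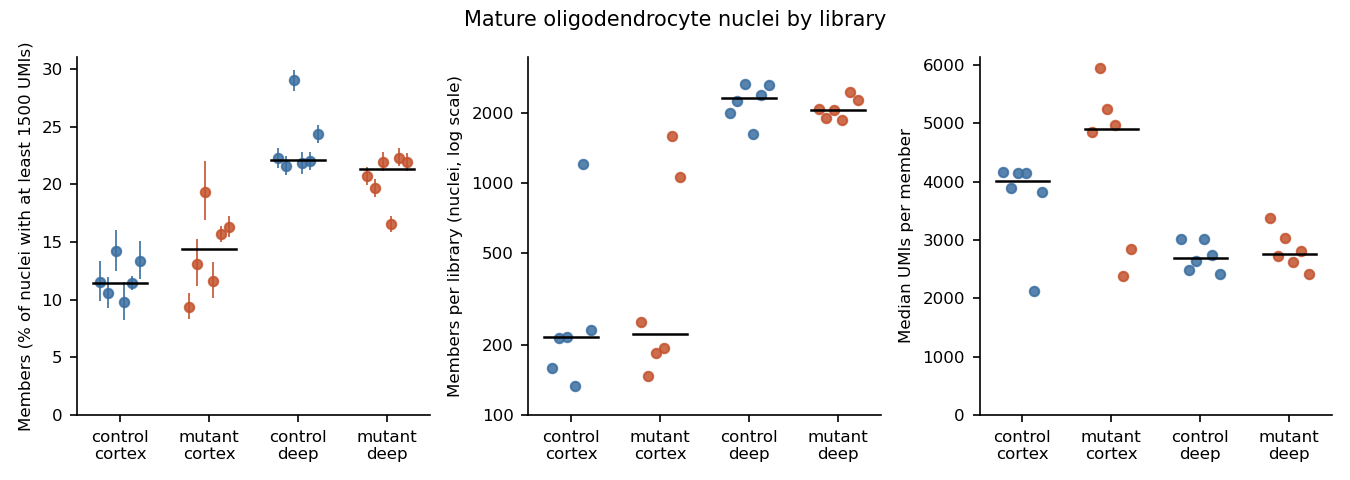
Selected nuclei per library in the 4 groups of 6 libraries: as a percentage of all nuclei with at least 1500 UMIs (left, bars are Clopper-Pearson 95% intervals that cover counting error only), their number on a log axis (middle) and their median UMI count (right). Points are libraries and lines are group medians; in the cortex, 3 libraries with over 1000 selected nuclei had the lowest median UMI counts, 2128 to 2849.

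The gene carrying the ret allele was sparse in these nuclei. Pdgfb, which encodes PDGF-B, was at 0 to 10.07 CPM in controls (21 UMIs over 6 libraries) and at 0 to 2.832 in mutants (16 UMIs). In the cortical nuclei that were not selected it was at 10.15 to 14.64 in controls and 8.303 to 13.86 in mutants. Because the allele lacks a motif and not the transcript, these levels do not check the labels.

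The 5 selecting genes are given as a description only. Aspa, which encodes the enzyme that splits N-acetylaspartate, was at 670.2, 767.6 and 967.4 CPM (lowest, median, highest) in mutants and at 989.7, 1044 and 1170 in controls, and the groups did not overlap. Prr5l, which encodes a partner of the mTORC2 kinase complex, was at 2062 to 3014 in mutants and 1669 to 2409 in controls. Mobp was at 1360 to 2126 and 1187 to 1614, Mag at 1325 to 1787 and 1295 to 1794, and Mog at 910.8 to 1366 and 1102 to 1413. These 3 genes encode proteins of the myelin sheath, and their groups overlapped, as they did for Prr5l.

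The first comparison asked whether the selected nuclei made up a different part of the cortical libraries. Of the nuclei with at least 1500 UMIs, 9.79 to 14.2% were selected in controls (11.8% ± 1.68, SD, n = 6) and 9.38 to 19.4% in mutants (14.3% ± 3.59, n = 6). The groups overlapped, and the difference of 2.44 percentage points did not pass an exact two-sided permutation test (p = 0.167; the smallest p that 6 against 6 allows is 0.00216). Without the 3 libraries of high yield it was 1.48 points (exact permutation p = 0.603). In both genotypes the share was lower in the cortex than in the deep brain of the same mouse in 6 of 6 mice. Deep brain shares were 23.5% ± 2.88 in controls and 20.5% ± 2.19 in mutants, which gave differences of -11.7 and -6.28 points (exact sign-flip permutation p = 0.0312 each, the smallest that 6 pairs allow).

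The second comparison asked which genes differed between mutant and control mature oligodendrocytes of the cortex. UMIs were summed over the selected nuclei of each library, and 9529 genes passed the filter on low counts. With edgeR's quasi-likelihood test and Benjamini-Hochberg adjustment, 44 genes (0.462% of those tested) passed an adjusted p of 0.05, 34 higher in mutants (0.357%) and 10 lower (0.105%). Complement C4b, the receptor gene Alk, the orphan nuclear receptor gene Rora, Cadps and Cacna1a were among those that rose, and Txnip, Mfge8 and Bfsp2 were among those that fell. A higher mean level in the selected nuclei than in the other cortical nuclei was found for 22 of the 34 and for 6 of the 10. This was not counted over all 9529 genes, so these counts have no background to be read against. Non-overlapping groups were found for 26 of the 34 and for 9 of the 10, against 103 of all 9529 genes (1.08%). The median log2 fold change over all genes was -0.00. An unadjusted p under 0.05 was reached by 997 genes. Without the 3 libraries of high yield there were 132 calls, 86 higher and 46 lower; without control 4 there were 29 and without mutant 4 there were 70. With the replicate number as a block, 189 genes were called (125 and 64), among them all 44, and with a block of mice matched on age, 119 (91 and 28), among them 42 of the 44. Fewer were found again in other settings: 16 of the 44 with nuclei thinned to 1500 UMIs (8 were not tested there), 28 with 6 further exclusion genes (4 not tested) and 28 (without control 4) to 43 (without mutant 4) when 1 library was left out. Without control 1, 2 or 3 or mutant 2, 3 or 5 they numbered 29 to 31.

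**Figure D2:**
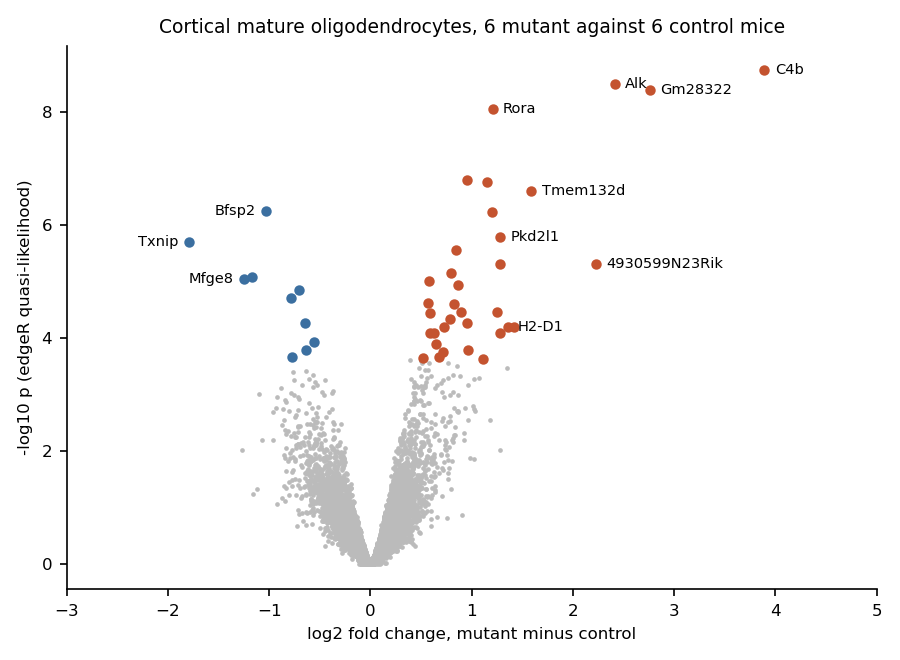
Log2 fold change, mutant minus control, against -log10 of the unadjusted p for the 9529 genes tested in cortical mature oligodendrocytes (6 libraries per genotype). Red points are the 34 genes called higher in mutants, blue points the 10 called lower and grey points the rest; C4b lies farthest to the right at a log2 fold change of 3.89.

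C4b, which encodes the fourth component of complement, changed most. It was at 147.9, 189.2 and 473.6 CPM (from here on after TMM scaling; lowest, median and highest library) in mutants and at 6.10, 15.1 and 26.6 in controls. All 6 mutant libraries lay above all 6 control libraries, by a log2 fold change of 3.89 ± 0.35 (SE; edgeR's quasi-likelihood test, adjusted p = 1.3e-05). Mutants 2 and 3 had the highest values, 473.6 and 364.7. The gene lies at chr17:34728380-34743882 on the minus strand (mm10), and its near-identical neighbour C4a could share its reads, so the division between both copies is uncertain. The call held in all 27 alternative settings.

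Alk, which encodes a receptor tyrosine kinase, was at 99.6, 131.7 and 155.1 CPM in mutants and at 10.2, 17.2 and 38.0 in controls. No library of either group reached the other group, and the log2 fold change was 2.41 ± 0.22 (edgeR's quasi-likelihood test, adjusted p = 1.3e-05). Its annotated span is chr17:71868972-72604627 on the minus strand. Gm28322, a lincRNA at chr1:50904444-50905918 on the plus strand, was at 37.3, 62.5 and 95.6 CPM in mutants and at 5.61, 8.85 and 14.2 in controls. These groups were also apart (log2 fold change 2.76 ± 0.26, adjusted p = 1.3e-05), and mutant 3 was highest.

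Rora, which encodes an orphan nuclear receptor, was at 290.0, 343.6 and 406.7 CPM in mutants and at 120.8, 152.2 and 180.8 in controls, without overlap (1.21 ± 0.12, edgeR's quasi-likelihood test, adjusted p = 2.1e-05). Tmem132d, a single-pass membrane protein gene, was at 388.4, 503.9 and 555.5 CPM against 96.5, 137.7 and 265.1, also without overlap (1.59 ± 0.20, adjusted p = 0.000345). Control 6 was the highest control and mutant 1 the lowest mutant. Cadps, which primes dense-core vesicles for release, was at 374.1, 562.6 and 671.5 CPM against 194.1, 260.4 and 280.3 (adjusted p = 0.000274). Cacna1a, the pore-forming subunit of P/Q-type calcium channels, was at 109.0, 124.3 and 150.4 CPM against 37.0, 55.6 and 73.0 (1.202 ± 0.16, adjusted p = 0.000623). Neither of these groups overlapped. Rora, Cadps and Cacna1a are named because of their small p and were chosen after their values were seen.

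Pkd2l1, a cation channel gene of the polycystin family, was at 56.4, 57.6 and 81.2 CPM in mutants and at 15.7, 21.9 and 39.6 in controls (log2 fold change 1.28 ± 0.18, edgeR's quasi-likelihood test, adjusted p = 0.00156). Mutant 5 was the highest, and the other 5 mutants lay within 56.4 to 61.6. Further RNAs without a known protein rose as well. Gm32005 was at 27.3, 36.1 and 40.0 CPM against 5.09, 14.8 and 19.1 (1.28 ± 0.20, adjusted p = 0.00335), and its groups did not overlap. A330072L02Rik was at 61.1, 128.8 and 153.2 CPM against 10.2, 48.3 and 69.7, with an overlap (1.42 ± 0.27, adjusted p = 0.0190). It lost its call without control 3, mutant 2 or mutant 3 and under the stricter selection (adjusted p up to 0.111).

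Class I MHC and interferon-induced genes were represented by H2-D1 and Parp12. H2-D1, which encodes a class I heavy chain, was at 35.5, 65.6 and 98.7 CPM in mutants and at 16.3, 24.95 and 36.8 in controls. Mutant 5 lay just below control 3, and all other mutants lay above all controls (log2 fold change 1.36 ± 0.26, edgeR's quasi-likelihood test, adjusted p = 0.0190). Reads of H2-D1 (chr17:35262730-35267499, plus strand) could be shared with other class I genes such as H2-K1. The call was lost without control 1, control 4, mutant 2 or mutant 3 (adjusted p 0.0505 to 0.0600) and with every nucleus thinned to 1500 UMIs (1.21, adjusted p = 0.0864).

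Parp12, an interferon-induced ADP-ribosyltransferase gene, was at 16.5, 23.0 and 38.9 CPM in mutants and at 5.09, 10.7 and 13.1 in controls, without overlap (1.28 ± 0.25, edgeR's quasi-likelihood test, adjusted p = 0.0224). It lost its call without control 2, control 3, control 4, mutant 3 or mutant 5 (adjusted p 0.0554 to 0.0743) and without the 3 libraries of high yield (1.13, adjusted p = 0.112). The RNA 4930599N23Rik, annotated as antisense, lies head to head with it on chromosome 6 without overlap (39118473 to 39148312, plus strand, against 39086410 to 39118349, minus strand, for Parp12). It was at 10.7, 16.1 and 31.5 CPM in mutants and at 1.02, 4.84 and 6.79 in controls (2.23 ± 0.35, adjusted p = 0.00335). Mutant 3 was the highest library for both genes. Reads from unannotated ends of either gene could be counted to the other, which was not tested.

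**Figure D3:**
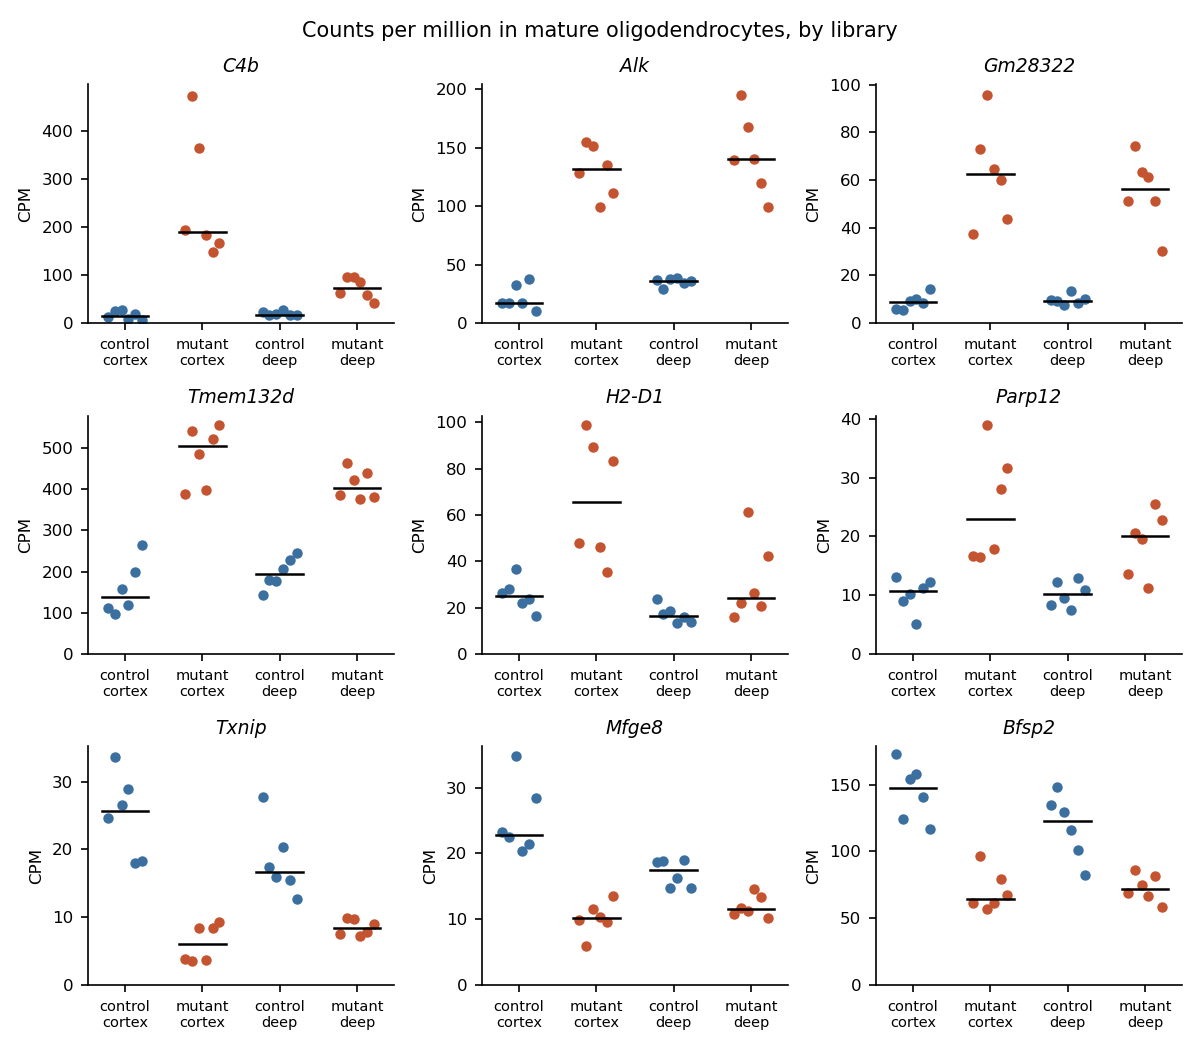
CPM after TMM scaling of 9 genes in the mature oligodendrocyte nuclei of each library, in 4 groups of 6 libraries (control and mutant, cortex and deep brain); points are libraries and lines are group medians. In the cortex, C4b, Alk, Gm28322, Tmem132d and Parp12 lay higher in every mutant library than in any control library, and Txnip, Mfge8 and Bfsp2 lay lower in every mutant library.

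Of the 10 genes that fell, Txnip fell most. Txnip, which encodes an inhibitor of thioredoxin that responds to glucose, was at 3.53, 6.11 and 9.36 CPM in mutants and at 18.0, 25.7 and 33.7 in controls, without overlap (log2 fold change -1.79 ± 0.26, edgeR's quasi-likelihood test, adjusted p = 0.00176). Mfge8, a secreted protein that binds phosphatidylserine on dying cells, was at 5.88, 10.1 and 13.6 CPM against 20.4, 22.8 and 34.8 (-1.25 ± 0.20, adjusted p = 0.00494). Bfsp2, an intermediate filament gene known from the lens, was at 56.8, 64.6 and 96.4 CPM against 116.8, 147.7 and 172.8 (-1.03 ± 0.14, adjusted p = 0.000623). For both genes, every mutant library lay below every control library. Dach2, a transcription factor gene, was at 21.3, 25.2 and 41.0 CPM against 34.8, 65.5 and 78.2 (-1.17 ± 0.19, adjusted p = 0.00484). Its groups overlapped only through control 3, at 34.8, while the other controls were at 62.8 or above.

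The other 6 genes that fell changed by less than Dach2, and their groups did not overlap. Ttyh1, a tweety family membrane protein gene, was at 36.8, 64.7 and 71.0 CPM in mutants and at 88.6, 107.7 and 127.3 in controls (-0.79 ± 0.14, edgeR's quasi-likelihood test, adjusted p = 0.00899). Slc22a17, which encodes a receptor of lipocalin 2, was at 159.8, 217.8 and 252.2 CPM against 307.9, 349.5 and 431.9 (-0.71 ± 0.12, adjusted p = 0.00681). Kcna1, a potassium channel gene, was at 155.1, 210.6 and 232.3 CPM against 259.0, 299.3 and 348.0 (-0.55 ± 0.11, adjusted p = 0.0307). Ccnd3 (cyclin D3) had a log2 fold change of -0.77 ± 0.17, Prrt1 of -0.65 ± 0.12 and the noncoding Pantr1 of -0.64 ± 0.13. Of these 6 calls, that of Slc22a17 held in every setting. Ccnd3 was lost in 14 of 26 settings, among them the removal of control 1, 2, 3, 4 or 6 or of mutant 1, 2, 3, 4 or 5 (adjusted p up to 0.134), Pantr1 in 11 of 27 (up to 0.133), Kcna1 in 8 of 27 (up to 0.0964) and Prrt1 in 5 of 27 (up to 0.133). The libraries whose removal ended a call were controls 1, 2, 3, 4 and 6 and mutants 1, 3 and 5 for Pantr1, controls 1, 2, 3 and 4 and mutants 2, 3 and 5 for Kcna1, and controls 1 and 2 and mutant 2 for Prrt1. Ttyh1 was lost in 1 of 27 (0.0505), and Dach2 in 2 of 27 (up to 0.0633), none of them by the removal of 1 library. Of all 20 calls named here by their fold change, that of Parp12 was the only one lost without the 3 libraries of high yield, where C4b had 4.22, Alk 2.79 and Txnip -2.42.

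Sums over nuclei do not say how many nuclei carried a transcript, so each selected nucleus was thinned to 1500 UMIs and the nuclei with at least 1 UMI of a gene were counted. No selected nucleus was shallower. C4b was found in 0.862, 2.31 and 4.65% of nuclei (lowest, median and highest library) in controls and in 15.4, 17.7 and 35.7% in mutants. Neurons, taken as nuclei with at least 3 Rbfox3 UMIs, at most 1 marker UMI and no Csf1r or Aqp4 UMI and thinned alike, had C4b in 0 to 0.978% in mutants. The limit on marker UMIs was applied before thinning and leaves out neurons with more oligodendrocyte RNA. The neuron shares of C4b, and of H2-D1 below, may be low through this limit, which was not tested. Before thinning, the median UMI count was 12209 to 23169 in neurons of mutants and 2388 to 5948 in the selected nuclei. Unthinned shares of selected nuclei with C4b were 2.59 to 8.26% in controls and 21.7 to 56.2% in mutants.

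The UMIs of C4b per nucleus differed as well. In mutants, 955 of 3440 selected nuclei (27.8%) had at least 1 UMI, 488 had at least 2, 121 had at least 5, and the highest had 21. In controls, 100 of 2170 (4.61%) had at least 1, 16 had at least 2, none had 5, and the highest had 4. The pooled share in mutants lay below the median library, at 37.5%, and 77.4% of these nuclei came from mutants 5 and 6. Without the 3 libraries of high yield, 348 of 777 mutant nuclei (44.8%) had at least 1 UMI, 237 at least 2 and 88 at least 5, against 53, 9 and 0 of 958 control nuclei. These counts were not thinned, and the mutant nuclei of these 9 libraries were the deeper ones; thinned to 1500 UMIs, C4b was found in 17.0 to 35.7% of nuclei in the 4 mutant and in 0.862 to 4.65% in the 5 control libraries. Nuclei are not replicates, so these counts are given without a test.

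Alk was found in 0, 1.45 and 3.71% of thinned nuclei in controls and in 11.6, 14.7 and 16.0% in mutants. Rora was found in 11.3, 12.9 and 16.9% in controls and in 25.5, 34.7 and 38.7% in mutants. Tmem132d was found in 10.0, 15.8 and 25.4% against 37.1, 42.5 and 44.4%, and Cadps in 20.5, 23.0 and 29.4% against 39.7, 48.2 and 56.6%. Neurons expressed these genes as well, so they give no background for them: Rora was found in 61.4 to 71.0% of thinned neurons in the cortical libraries. H2-D1 was found in 2.59, 3.74 and 5.05% of selected nuclei in controls and in 5.24, 8.86 and 15.0% in mutants, and in 0.978 to 3.29% of neurons in mutants. Txnip was found in 1.504, 3.79 and 5.58% in controls and in 0, 1.04 and 1.59% in mutants. The ranges of both genotypes did not overlap for C4b, Alk, Rora, Tmem132d, Cadps and H2-D1, and they overlapped for Txnip.

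To see which of these genes occurred in the same nuclei, pairs were counted in the thinned nuclei of the mutant cortex, as a description. H2-D1 was found in 16.3% of the 602 nuclei with C4b and in 6.34% of those without it, and its share was higher beside C4b in 6 of 6 libraries. Alk did not follow this pattern, with 13.3% beside C4b and 14.0% otherwise, and a higher share in 2 of 6 libraries. Without the 3 libraries of high yield, the shares beside and without C4b were 15.6 and 6.84% for H2-D1 (higher in 4 of 4 libraries) and 15.6 and 14.7% for Alk (2 of 4). Depth does not differ within thinned nuclei, but nuclei of 1 library share its composition.

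The next comparison set the same genes beside the mature oligodendrocytes of the deep brain, where the mutants carry calcified vessels. There, 169 of 13777 genes (1.23%) were called by genotype. All 34 genes that rose in the cortex and all 10 that fell were tested there; 33 and 10 had the same sign, and 24 and 8 were called. The deep brain libraries came from the same mice. C4b had a log2 fold change of 1.93 in the deep brain (adjusted p = 0.000116), where mutants were at 41.3 to 96.3 CPM and controls at 15.8 to 26.3. In the cortex, controls were at 6.10 to 26.6 and mutants at 147.9 to 473.6, so the mutant ranges of the regions lay apart. Alk had 2.03 in the deep brain (adjusted p = 2.3e-06), Gm28322 had 2.53 (5.1e-06), and mutants were at 99.4 to 194.8 and 30.2 to 74.4 CPM. H2-D1 had 0.87 ± 0.28 and was not called there (adjusted p = 0.152).

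Whether the genotype effect itself differed between cortex and deep brain was tested as an interaction over all 24 libraries, with no mouse term in the main fit. With edgeR, 0 of 13722 genes (0%) passed, while 524 had an unadjusted p under 0.05 and DESeq2 called 3 (Oxt, Avp and C4b). The difference for C4b was 1.95 ± 0.44 on the log2 scale, larger in the cortex (edgeR's quasi-likelihood test, adjusted p = 0.504). With the mouse as a block it was 1.87 (adjusted p = 0.00874), 1 of 2 genes called in that setting, the other being Avp, which encodes the neuropeptide vasopressin. DESeq2 gave C4b 2.02 (adjusted p = 0.0190). Plin3, which coats lipid droplets, was at 53.6, 55.5 and 57.6 CPM in mutant cortex and at 23.4, 32.7 and 46.5 in control cortex (0.79 ± 0.15, adjusted p = 0.0164), and had -0.01 in the deep brain (adjusted p = 0.975). Its interaction of 0.82 did not pass either.

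The same question was asked of the nuclei around them. In the other cortical nuclei, which came from the same libraries, 43 of 17735 genes (0.242%) were called by genotype, and of the 34 and 10 calls in mature oligodendrocytes, 33 and 8 had the same sign there and 4 and 1 were called. A test of the difference between both classes of nuclei, with the library as a block, called 24 of 16216 genes (0.148%), 19 more positive and 5 more negative in mature oligodendrocytes. Among them were 12 of the 34 genes that rose and 3 of the 10 that fell. Counts moved with single libraries: there were 60 without mutant 6, and 10 to 15 without control 1, 2, 4, 5 or 6 or mutant 1, 2, 3 or 4, and 232 (78 and 154) without the 3 libraries of high yield.

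Alk showed this difference most (2.40 ± 0.22, edgeR's quasi-likelihood test, adjusted p = 4.7e-06). In the other nuclei it was at 78.7, 98.4 and 100.9 CPM in mutants and at 76.3, 89.2 and 100.5 in controls, so the median in mature oligodendrocytes (129.9 in mutants, 16.55 in controls, on the scale of the same fit) lay above that of the other nuclei in mutants and below it in controls. Slc9b2, a sodium/hydrogen exchanger gene, had the next most positive difference (2.05 ± 0.36, adjusted p = 0.0158). It did not pass the filter on low counts within mature oligodendrocytes alone, where it was at 6.41, 13.4 and 22.4 CPM in mutants and 2.00, 4.51 and 6.89 in controls, overlapping, and it was at -0.12 in the other nuclei. C4b rose in both classes but more in mature oligodendrocytes (difference 1.69 ± 0.23, adjusted p = 0.000999). Other nuclei had 5.13, 9.58 and 20.8 CPM of C4b in mutants and 0.650, 2.48 and 3.40 in controls; they include the 1947 nuclei with at least 8 marker UMIs that another limit left out, and their part in these values was not tested. Tmem132d differed by 1.46, Cacna1a by 1.11, Cadps by 1.08 and Rora by 1.00. In mutants, the medians of Cacna1a, Cadps and Rora were still lower in mature oligodendrocytes (121.3, 552.0 and 335.3 CPM) than in the other nuclei (531.2, 992.7 and 1286). Bfsp2 (-0.96, adjusted p = 0.00789), Txnip (-1.90, 0.0193) and Ttyh1 (-0.72, 0.0343) were more negative in mature oligodendrocytes. Lrmda differed by -1.13 (adjusted p = 0.0158), with a rise of 0.59 in the other nuclei. Mfge8 showed no such difference, having -1.13 in the other nuclei (adjusted p = 0.0325).

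**Figure D4:**
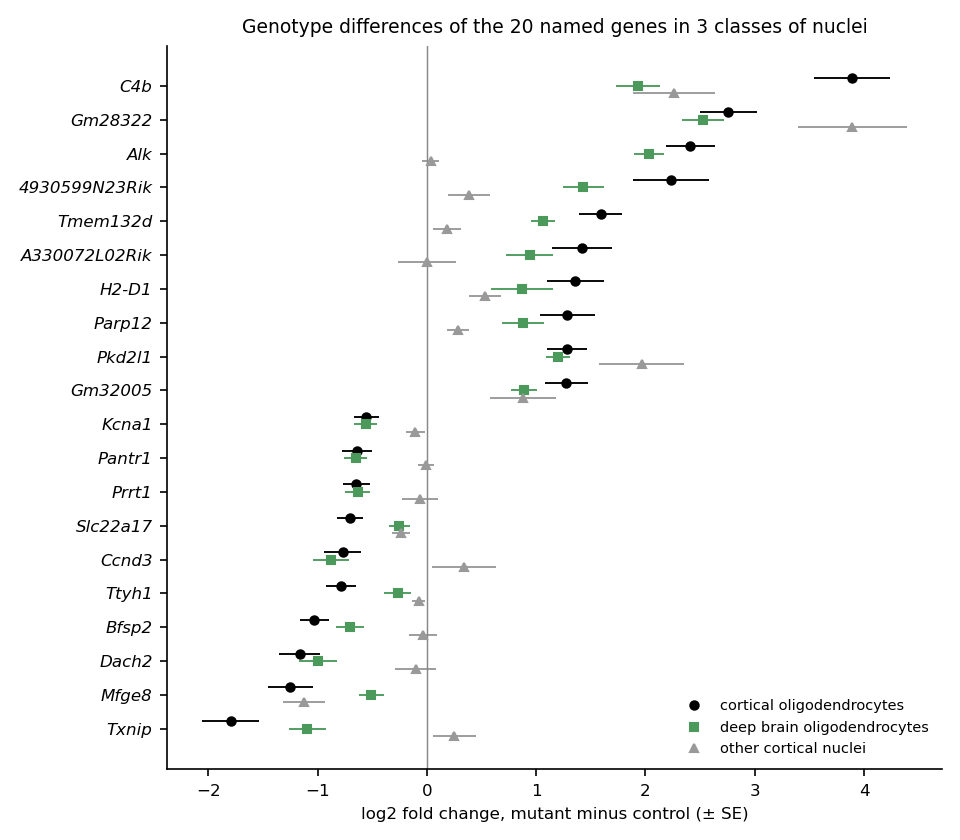
Log2 fold change, mutant minus control, with its SE for the 20 named genes in cortical mature oligodendrocytes (black circles), deep brain mature oligodendrocytes (green squares) and the other cortical nuclei (grey triangles), 6 libraries per genotype each. Alk lies at 2.41 and 2.03 in both groups of oligodendrocytes and at 0.03 in the other nuclei.

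Gene lists of known oligodendrocyte functions were then read across the genotype comparison; all lists were drawn up with earlier results of these data known. Calls in the lists are to be read beside the 0.462% of all genes tested that were called, a share at which short lists hold few or no calls. Of the genes of myelin, junctions and axon support, none was called. The myelin list had 18 genes, 3 of them used in the selection, and 14 tested, of which 3 were above 0, with a median log2 fold change of -0.18 (range -0.39 to 0.19). Mbp had 0.05 ± 0.09 (edgeR's quasi-likelihood test, adjusted p = 0.919). The list of junctions and axon support had 17 tested and a median of -0.02, with 0.17 for Nkain2 and 0.15 for Dock10. Lineage transcription factors had 14 tested, none called and a median of 0.08, with 0.19 for Zeb2 and 0.05 for St18; Sox10, chosen after its value was seen, had -0.36 ± 0.12 (adjusted p = 0.222).

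No lipid synthesis gene was called, beside 0.462% of all genes tested. Cholesterol synthesis genes, 21 tested, had 20 below 0 and 1 above, with a median of -0.21 (range -0.61 to 0.01) against -0.00 over all genes. Cyp51 had -0.11 (edgeR's quasi-likelihood test, adjusted p = 0.862) and Srebf2, the transcription factor of the pathway, had -0.20 (adjusted p = 0.665). The smallest adjusted p of the list were those of Fdft1, which encodes squalene synthase (-0.44 ± 0.11, 0.0761), and Msmo1, a sterol oxidase gene (-0.55 ± 0.13, 0.0774), both named after their values were seen. Fatty acid and sphingolipid genes, 21 tested, had a median of -0.14 and no call, with -0.25 for the desaturase gene Scd2 (adjusted p = 0.454) and -0.21 for Ugt8a, which makes galactosylceramide (adjusted p = 0.509). The smallest p of that list was on the other side, for the sphingomyelin synthase gene Sgms1 (0.45 ± 0.11, adjusted p = 0.0802), named after its value was seen.

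The immune lists followed. Of the disease-associated oligodendrocyte list, 10 of 18 genes were tested and 2 rose, C4b and H2-D1, against 0.357% of all genes tested; the median of the list was -0.03. The other members included Il33 (-0.19), Klk6 (-0.62 ± 0.25, edgeR's quasi-likelihood test, adjusted p = 0.376), Cryab (-0.60, 0.323) and Sgk1 (0.13 ± 0.54), none of which was called; these 4 were chosen after their values were seen. Of the interferon and class I MHC list, 10 of 26 genes were tested, 1 rose (H2-D1; 0.357% of all genes did), and all 10 were above 0, with a median of 0.59 (range 0.10 to 1.36). The members not called included Xaf1 (0.54 ± 0.13, adjusted p = 0.0802), Ifi27 (0.77 ± 0.33, 0.421), H2-K1 (0.77 ± 0.31, 0.391), B2m, the light chain of class I molecules (0.72 ± 0.28, 0.374), Herc6 (0.63, 0.327), the signal transducer Stat2 (0.36), Rnf213 (0.28), and Tapbp, which loads peptides onto class I molecules (0.10); all but H2-D1 were chosen after their values were seen. Microglial marker genes, since microglia express the same genes, are the values to read beside this list: they summed to 64.83 to 152.7 CPM in controls and 59.79 to 113.3 in mutants, and their part was not tested.

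H2-D1 and B2m encode the heavy and light chain of the same molecule, and their promoters are shown because the list they belong to lay above 0 throughout. Each run is the 250 bases before the RefSeq transcription start on the plus strand of GRCm38.p6, at chr17:35262844-35263093 for H2-D1 and at chr2:122147437-122147686 for B2m. The start sites of H2-D1 differ between annotations: the span of the gene given above begins at 35262730, upstream of this window, so its run lies within that span. Capitals mark matches, on either strand, to AANNGAAA, a core recognised by interferon regulatory factors.
H2-D1: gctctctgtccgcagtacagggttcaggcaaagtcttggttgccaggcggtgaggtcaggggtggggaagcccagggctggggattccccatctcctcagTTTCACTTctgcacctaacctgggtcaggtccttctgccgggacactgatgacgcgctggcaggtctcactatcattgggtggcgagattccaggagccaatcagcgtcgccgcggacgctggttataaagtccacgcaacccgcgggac
B2m: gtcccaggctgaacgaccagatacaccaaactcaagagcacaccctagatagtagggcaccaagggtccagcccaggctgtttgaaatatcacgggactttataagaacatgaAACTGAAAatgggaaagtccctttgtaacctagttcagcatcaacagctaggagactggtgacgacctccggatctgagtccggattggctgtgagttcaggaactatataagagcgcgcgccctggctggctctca
Each promoter had 1 match, starting 150 bases (H2-D1) and 137 bases (B2m) before the start site. Among the tested genes of the list, 5 of 8 with an entry (B2m, H2-D1, H2-K1, Stat2 and Xaf1) held a match in any of their entries. Of all 32851 promoter entries of this length, of genes tested or not, 21.3% held a match. That share is counted per entry and not per gene, so both shares are in unlike units. A match describes letters in this window and not a bound site.

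The remaining lists had no call. Subtype genes, 13 tested, had a median of -0.12, with -0.12 for Ptgds, a prostaglandin D synthase (edgeR's quasi-likelihood test, adjusted p = 0.912), and 0.23 for the glutamate receptor gene Grm3 (adjusted p = 0.505). The bone morphogenetic protein list, 6 of 16 tested, had -0.01, with -0.16 for the receptor gene Bmpr2 and -0.02 for the inhibitor gene Smad7. Hypoxia and glycolysis genes, 24 tested, had -0.02, with -0.22 for Gapdh (adjusted p = 0.833) and -0.18 for Pkm. Iron genes, 14 tested, had -0.03, with 0.19 for Trf (transferrin) and 0.01 for Fth1 (ferritin heavy chain).

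Genes of protein folding stress, 12 tested, were all below 0, with a median of -0.29 (range -0.60 to -0.08), and the chaperone genes Hspa8 (-0.38, edgeR's quasi-likelihood test, adjusted p = 0.636) and Hsp90ab1 (-0.32, 0.423) were not called. Immediate early genes, 8 of 19 tested, had 7 below 0 and a median of -0.49 (range -0.85 to 0.13). Egr1, an activity-induced transcription factor gene, was at 17.1, 29.95 and 40.4 CPM in mutants and at 30.6, 40.9 and 48.1 in controls, with an overlap (-0.47, adjusted p = 0.407). In the deep brain, Egr1 had -1.14 (adjusted p = 0.0313). Jund had -0.51 in the cortex (adjusted p = 0.498). Over the marker lists used to check the name, no tested gene was called either, with medians of -0.18 for the 10 oligodendrocyte genes, 0.02 for newly forming oligodendrocytes (5 tested), -0.20 for precursors (4), -0.15 for neurons (8), -0.42 for astrocytes (4) and -0.32 for microglia (3).

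**Figure D5:**
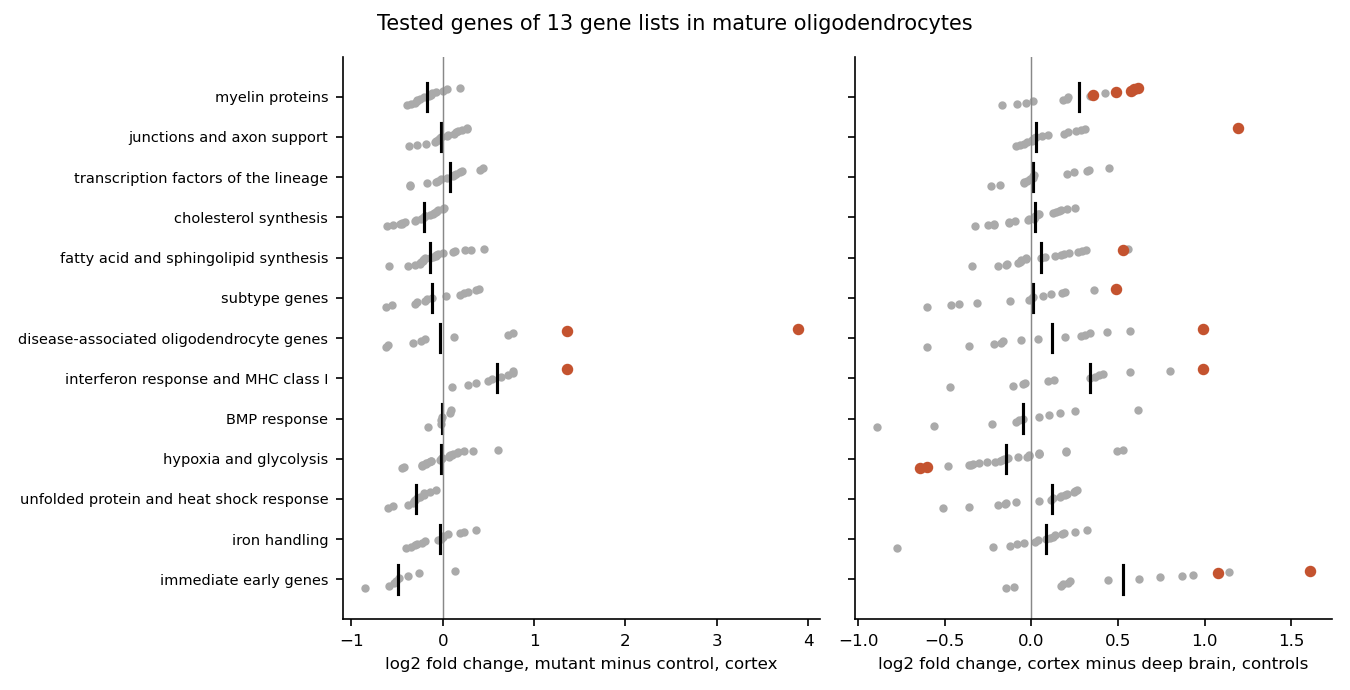
Log2 fold changes of the tested genes of 13 lists in mature oligodendrocytes: left, mutant minus control in the cortex; right, cortex minus deep brain in controls (6 libraries per group). Each point is a gene, red points are called genes and black ticks are list medians; on the left, all 10 tested interferon and class I MHC genes lie above 0 and 1 of them is called.

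Genes that mark subtypes of mature oligodendrocytes, 4 in all, were compared as the share of thinned nuclei with at least 1 UMI. Opalin, a paranodal membrane protein gene, was found in 36.0% ± 5.75 of nuclei in mutants and 41.7% ± 5.98 in controls (SD, n = 6 each; difference -5.69 points, exact permutation p = 0.130, adjusted p = 0.173 over the 4 genes). Ptgds was found in 74.8% ± 4.96 and 76.9% ± 5.08 (exact permutation p = 0.478, adjusted p = 0.478). Klk6, a secreted protease gene, was rare, at 2.16% ± 0.599 and 3.66% ± 1.56 (exact permutation p = 0.0519, adjusted p = 0.104). Il33, a nuclear alarmin, was found in 45.0% ± 3.43 and 51.3% ± 4.66 (difference -6.31 points, exact permutation p = 0.0281, adjusted p = 0.104). None of the 4 differences passed after adjustment, but without control 6 that of Klk6 did (-2.06 points, exact permutation with adjusted p = 0.0346), and without control 5 that of Il33 did (-7.88 points, exact permutation with adjusted p = 0.0173). Without the 3 libraries of high yield the differences were -7.72 (Opalin), -1.23 (Ptgds), -1.61 (Klk6) and -5.83 points (Il33), none past adjustment (exact permutation, adjusted p 0.0635 to 0.667).

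The subtype genes divided the nuclei in the mutant cortex, and Klk6 and Il33 did so in the other groups as well, as given at the end. The 68 thinned nuclei with Klk6 had Ptgds in 30.9% and Il33 in 11.8%, against 72.5% and 42.8% in the nuclei without Klk6, and neither gene had the higher share beside Klk6 in any of the 6 libraries. Rora, in contrast, was found in 55.9% of nuclei with Klk6 and 32.2% of those without, higher in 6 of 6 libraries. Among the 1450 nuclei with Il33, Ptgds (82.7% against 63.7%), Opalin (45.4% against 34.8%) and Cadps (59.0% against 46.4%) were more often found, each in 6 of 6 libraries. C4b was found in 15.8% of nuclei with Ptgds and 21.9% of those without, with the lower share beside Ptgds in 6 of 6 libraries. Without the 3 libraries of high yield, 17 nuclei had Klk6, and the shares beside and without it were 47.1 and 78.3% for Ptgds, 11.8 and 47.8% for Il33 and 64.7 and 34.6% for Rora. Beside and without Il33 (365 nuclei with it), they were 86.6 and 69.7% for Ptgds, 38.1 and 28.2% for Opalin and 51.5 and 38.8% for Cadps, and C4b was found in 23.1 and 30.5% beside and without Ptgds. Each of these kept its direction in 4 of 4 libraries. These shares describe nuclei within libraries and carry no test.

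The last comparison asked how mature oligodendrocytes of the control cortex differed from those of the deep brain of the same 6 mice. Of 12662 genes, 581 (4.59%) were called by edgeR's quasi-likelihood test, 394 higher in the cortex (3.11%) and 187 lower (1.48%). With the mouse as a block, which uses the pairing of both regions, 822 were called (506 higher and 316 lower), among them 550 of the 581. Myelin and plasma membrane genes, Cldn11, Mal, Opalin, Tspan2 and Cd9, were higher in the cortex, as were B2m and the ceramide synthase gene Cers2. Many calls were in genes of other cells. Only 46 of the 394 (11.7%) and 59 of the 187 (31.6%) had a higher level in the selected nuclei than in the other nuclei of both regions, against 5768 of all tested genes (45.6%), a division chosen after the data were seen. Neuronal marker sums in the selected nuclei were 1427 to 2184 CPM in the cortex and 877 to 1389 in the deep brain, and their part in the calls was not tested. Depth and yield were unlike between regions as well, with overlapping ranges. Median UMI counts per selected nucleus were 2128 to 4167 in control cortex (group median 4020) and 2423 to 3018 in control deep brain (2695). The lower UMI limit was reached by 21.7 to 95.6% of nuclei in control cortex and 95.5 to 96.5% in control deep brain. Calls with thinned nuclei are given further below, and the part of the yield was not tested. Without control 3, 325 genes were called, without control 2, 332, and without control 5, 375.

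The vesicular glutamate transporter genes, known from neurons, differed in opposite directions. Slc17a7, the transporter of cortical neurons, was at 74.8, 85.7 and 108.8 CPM in the cortex and at 8.81, 24.3 and 35.5 in the deep brain (log2 fold change 1.98 ± 0.23, edgeR's quasi-likelihood test, adjusted p = 0.000111). Slc17a6, that of thalamic and brainstem neurons, was at 3.40, 8.33 and 15.3 CPM against 20.5, 40.1 and 46.9 (-2.15 ± 0.29, adjusted p = 0.000332). The source of these UMIs in the selected nuclei was not tested. Of the genes with the largest fold changes, others that were higher in the cortex (Mlip, Npy, Kcnv1, Ccn3, Trpc4, Chrm1, Dlx6os1 and Cpne4, 1.71 to 2.28) and most of those that were lower (such as Calb2, -1.91, and Slc6a11, -1.62) include known genes of other cells: Npy encodes a neuropeptide, Calb2 a calcium-binding protein of interneurons and Slc6a11 a GABA transporter of astrocytes. Dlx6os1 and Cpne4 were highest in control 6, at 128.0 and 157.5 CPM, while the other 5 controls were at 9.07 to 26.5 and 8.50 to 36.7; without control 6 their log2 fold changes were 1.48 and 1.19 and both were still called. With 6 further exclusion genes neither was called (1.25 and 0.74, adjusted p = 0.0897 and 0.198), and with a marker sum of at least 12 Cpne4 was not (adjusted p = 0.0644).

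Among genes that were higher in the selected nuclei, A530053G22Rik, an RNA without a known protein, differed most. It was at 11.2, 40.8 and 69.7 CPM in the cortex and at 85.9, 136.8 and 234.3 in the deep brain, without overlap (log2 fold change -1.89 ± 0.27, edgeR's quasi-likelihood test, adjusted p = 0.000665). Tmem117, a membrane protein gene, was at 158.2 to 284.5 CPM against 421.0 to 453.8 (-0.88 ± 0.11, adjusted p = 0.00012). Selenos, a selenoprotein of the endoplasmic reticulum, was higher in the cortex (0.80 ± 0.13, adjusted p = 0.00157). Tmem117 and Selenos were chosen after their values were seen.

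Of 14 tested myelin genes, 5 were higher in the cortex, against 3.11% of all genes tested, and none lower, with a list median of 0.27 against -0.00 over all genes. With the mouse as a block, 7 were higher and none lower, where 506 of all 12662 genes were higher. Cd9, a tetraspanin gene, was at 187.0, 269.6 and 299.4 CPM in the cortex and at 139.4, 161.7 and 189.4 in the deep brain (0.61 ± 0.12, edgeR's quasi-likelihood test, adjusted p = 0.00707). Mal, a membrane protein gene of myelin, was at 945.1, 1358 and 1795 CPM against 822.8, 938.0 and 1004 (0.57 ± 0.13, adjusted p = 0.0158). Cldn11, the claudin of myelin, was at 1056, 1493 and 1897 CPM against 710.1, 985.1 and 1182 (0.59 ± 0.15, adjusted p = 0.0298). Groups overlapped in each of these genes. The call of Cd9 held in all 14 settings. That of Mal was lost without control 1 or 2, and that of Cldn11 without control 1, 2, 3 or 4 (adjusted p up to 0.150). These fits without 1 mouse did not use the pairing of both regions. With the mouse as a block, edgeR's quasi-likelihood test gave adjusted p of 0.00049 (Cd9), 0.0019 (Mal) and 0.00051 (Cldn11).

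Opalin was at 339.1, 422.3 and 517.3 CPM in the cortex and at 227.1, 296.2 and 391.3 in the deep brain (0.49 ± 0.14, edgeR's quasi-likelihood test, adjusted p = 0.0499), and Tspan2 at 818.1, 988.2 and 1105 against 660.3, 744.8 and 859.7 (0.36 ± 0.09, adjusted p = 0.0294). Both calls were lost in 7 of 14 settings (adjusted p up to 0.197 for Opalin and 0.158 for Tspan2, the highest with nuclei thinned to 1500 UMIs). The removal of control 1, 2, 3, 4 or 6 ended the call of Opalin, and that of control 1, 2, 3, 4 or 5 the call of Tspan2. These fits did not use the pairing of both regions. With the mouse as a block, edgeR's quasi-likelihood test gave adjusted p of 0.0018 (Opalin) and 0.0023 (Tspan2). The share of thinned nuclei with Opalin was higher in the cortex in 6 of 6 controls, by 6.71 points. It was also higher in 6 of 6 mutants, by 4.93 points (exact sign-flip permutation p = 0.0312 each, the smallest possible). Ptgds, Klk6 and Il33 differed by 1.26, -1.87 and 3.26 points in controls (exact sign-flip permutation p = 0.656, 0.125 and 0.0938). In mutants they differed by -1.43, -2.16 and 3.82 points (exact sign-flip permutation p = 0.594, 0.0938 and 0.125). These p were not adjusted over the subtype genes, so that of Opalin does not count as passing.

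Other lists held few regional calls, to be read beside the 3.11% of all tested genes that were higher and the 1.48% that were lower. Opalin was also the 1 called of 14 subtype genes. B2m was the 1 called gene of 13 in the interferon and class I MHC list (median 0.34) and of 14 in the disease-associated list (median 0.12), at 10.2, 24.95 and 28.9 CPM in the cortex and 8.68, 9.87 and 12.3 in the deep brain (0.99 ± 0.21, edgeR's quasi-likelihood test, adjusted p = 0.0108). Cers2 was the 1 of 21 fatty acid and sphingolipid genes (0.53, adjusted p = 0.0288; list median 0.05). The junction list had 1 of 17, Lingo1 (1.19, adjusted p = 0.00559; median 0.02), and the hypoxia and glycolysis list 2 of 25, both lower in the cortex, Aldoc (-0.64, 0.00724) and Tpi1 (-0.60, 0.0406; median -0.15). The immediate early list had 2 of 14, Npas4 (1.61, 0.0351) and Nr4a2 (1.08, 0.0140), with a median of 0.53. Some of these genes had higher levels in other nuclei. Before TMM scaling, Npas4 was at 8.76 CPM in the selected and 50.3 in the other nuclei of control cortex. Nr4a2 was at 11.1 and 61.4 there, Lingo1 at 50.6 and 184.5 and Tpi1 at 29.2 and 42.2. B2m (21.46 and 14.76) and Cers2 (262.7 and 21.55) were higher in the selected nuclei. The source of these UMIs was not tested. The calls of B2m, Cers2, Npas4 and Tpi1 were lost in 4, 5, 7 and 7 of 14 settings, among them the removal of control 2, 3 or 4 for B2m, of control 1, 2, 3 or 4 for Cers2, of control 1, 2, 4 or 5 for Npas4 and of control 1, 2, 3, 5 or 6 for Tpi1, and that of Nr4a2 was lost without control 4 (adjusted p = 0.0529). With 6 further exclusion genes, Nr4a2 (adjusted p = 0.0543) and Aldoc (adjusted p = 0.0966) were not called. No gene of the transcription factor (14 tested), cholesterol (22), bone morphogenetic protein (11), protein folding (16) or iron (15) lists was called between regions.

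With the mouse as a block, more list members were called between regions, as were more genes in all. Of the 12662 genes, 506 were higher in the cortex and 316 lower in that fit, against 394 and 187 without the block. The list counts below are to be read beside these. The interferon and class I MHC list then had 3 higher, B2m with H2-D1 (0.58, edgeR's quasi-likelihood test, adjusted p = 0.0282) and Ifi27 (0.77, adjusted p = 0.00649). The immediate early list had 5 higher, adding Junb (0.91), Egr3 (1.202) and Nr4a1 (0.74). The subtype list had Opalin and Ptgds (0.35) higher and Klk6 lower (-0.59, edgeR's quasi-likelihood test, adjusted p = 0.0395). The shares of thinned nuclei with Ptgds and Klk6 did not pass the sign-flip test between regions, as given above. The disease-associated list had B2m and H2-D1 higher and Klk6 lower. The fatty acid and sphingolipid list had Degs1 (0.53) and Cers2 higher and Sgms1 (-0.36) lower, and the junction list Cadm4 (0.30) and Lingo1 higher. In the protein folding list the chaperone gene Hsp90aa1 was lower (-0.37, edgeR's quasi-likelihood test, adjusted p = 0.00683). The hypoxia and glycolysis list kept Aldoc and Tpi1, and the transcription factor, cholesterol, bone morphogenetic protein and iron lists had no call under the block either. B2m, Cers2, Npas4, Nr4a2, Aldoc and Tpi1 were lost in some settings that did not use the pairing. Under the block their adjusted p were 0.0011 to 0.0149 (edgeR's quasi-likelihood test).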

How the data were processed

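Single-nucleus RNA was measured with 10x 5′ libraries of 6 mutants and 6 controls, 1 cortical and 1 deep brain library each, 24 in all. The authors demultiplexed with bcl2fastq 2.20.0.422 and made the deposited UMI counts per gene and barcode with Cell Ranger 5.0.1 on mm10, with intronic reads included, as named in the methods and the submitters' processing notes. The counts are raw. Of 32285 listed features, 3 vector features were not used.

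Groups came from the labels. Members and gene lists were chosen with earlier results of these data known. UMIs of the selected nuclei were summed per library, from 595838 to 4285668 in the cortex, and tested with edgeR 4.0.16 (filterByExpr, TMM scaling, quasi-likelihood test, R 4.3.3, limma 3.58.1) with Benjamini-Hochberg adjustment at 0.05; nuclei were never replicates. The SE given with a log2 fold change was calculated back from the test, as its size over the square root of the quasi-likelihood F statistic. The genotype fit used the 12 cortical libraries and the region fit the control libraries. The interaction of region and genotype used all 24 libraries. Neither the region fit nor this interaction had a mouse term, except where a mouse block is named. The interaction of nucleus class and genotype had a library block. Alternatives used DESeq2 1.42.0, other scaling, filters, selections and covariates, and each library left out; those on the 3 libraries of high yield were added after the data were seen. The fits were tested on simulated data. Shares were compared with exact two-sided permutation tests (scipy 1.17.1), and single shares have Clopper-Pearson 95% intervals, which, like the UMI depth, cover counting error only. Thinning drew 1500 UMIs per nucleus with a fixed seed. Doublets were not called; the exclusion genes leave out nuclei with their UMIs, 1 alternative added 6 further such genes, and 1 alternative left out nuclei with over 3 times the median UMIs of their library. Lists were read by counts and medians.

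Cortex and deep brain of 1 number came from the same mouse, so these libraries are paired. Their deviations from the group means correlated at r = 0.0989 to 0.293 in controls. Genes named are the 10 with the largest called fold change per direction and a mean of at least 10 CPM, and per list up to 4 called genes or otherwise the 2 with the highest level; where fewer than 5 genes were called, the 5 with the smallest p could be named. All others are said to be chosen after their values were seen. Promoters are RefSeq sequences of GRCm38.p6.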

Additional observations from a re-analysis of the deposited data

Results flagged for a closer look

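Within groups of 6 libraries, 9 of 120 groups held a library far from the other 5 by Dixon's criterion, which chance alone meets in about 1 in 20 groups. In the cortical mature oligodendrocytes of mutants, these were 4930599N23Rik in mutant 3 (31.5 CPM, others 10.7 to 18.0), Pkd2l1 in mutant 5 (81.2, others 56.4 to 61.6) and Ttyh1 in mutant 3 (36.8, others 61.1 to 71.0). In those of controls, they were Dach2 in control 3 (34.8 CPM, others 62.8 to 78.2), Dlx6os1 in control 6 (128.0, others 9.07 to 26.5), Cpne4 in control 6 (157.5, others 8.50 to 36.7) and the median UMI count in control 5 (2128, others 3824 to 4167). In the deep brain of controls, Tpi1 stood apart in control 4 (32.2 CPM, others 43.6 to 49.7) and the share of selected nuclei in control 3 (29.0%, others 21.6 to 24.4%).

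The genotype effect differed between classes of nuclei for the genes below, given as log2 differences, mature oligodendrocytes minus the other cortical nuclei, all past an adjusted p of 0.05 in edgeR's quasi-likelihood test. More positive in mature oligodendrocytes were Alk (2.40), Slc9b2 (2.05), C4b (1.69), Tmem132d (1.46), Cyp2j9 (1.17), Cacna1a (1.11), Cadps (1.08), Rora (1.00), Nap1l3 (0.96), Sppl2b (0.95) and Gm48678 (0.91), and 8 others at 0.54 to 0.85. More negative were Txnip (-1.90), Tns1 (-1.25), Lrmda (-1.13), Bfsp2 (-0.96) and Ttyh1 (-0.72). Cyp2j9, Nap1l3, Sppl2b, Tns1 and Lrmda were not called by genotype within mature oligodendrocytes alone, and Slc9b2 was not tested there.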

How the results depend on the processing

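Of the 27 alternative settings of the genotype comparison, 17 gave a count within 1.5 times of the 44 genes called. The others gave 130 (DESeq2, 90 higher and 40 lower), 81 (no filter on low counts), 119 (age-matched block), 70 (age in months as a covariate), 22 (nuclei thinned to 1500 UMIs), 132 (without the 3 libraries of high yield) and 108 (with high yield as a covariate); leaving out 1 library gave 29 to 70, and the causes were not tested. With the replicate number as a block, 189 genes were called (125 and 64), and all 44 were among them. The labels give same-numbered mutants and controls no common litter or batch, though those numbered 1, 2, 3 and 4 were of the same age to the day; their deviations correlated at r = 0.0312 to 0.452, and only numbers 5 and 6 correlated best with their own number. With that block, the adjusted p of the subtype shares were 0.208 (Opalin), 0.375 (Ptgds), 0.208 (Klk6) and 0.125 (Il33), and p for the share of selected nuclei was 0.0938. That share differed by 0.394 to 3.48 points over 18 alternatives, none with p under 0.05.

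The regional comparison called 355 genes with thinned nuclei (272 and 83), 343 with 6 further exclusion genes (235 and 108), and 325 to 475 without 1 mouse; without a filter on low counts the split of 394 and 187 became 407 and 335. With the mouse as a block it called 822. The interaction of region and genotype, at 0, gave 3 genes by DESeq2 and 2 with the mouse as a replicate block, and 0 without each of the 12 mice. The class comparison called 53 genes by DESeq2, 10 to 60 without 1 library, 12 and 4 in each direction with RLE size factors and 232 without the 3 libraries of high yield. Leaving out 1 library, the subtype share differences ran from -7.71 to -4.12 points (Opalin), from -3.80 (without mutant 1) to -0.53 (without control 3; -2.12 with all) for Ptgds, from -2.06 to -1.24 (Klk6; adjusted p down to 0.0346) and from -7.88 to -5.32 (Il33; down to 0.0173).

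Of 1710 values of named genes under alternatives, 1563 kept direction and call, 110 lost the call and 37 changed sign, none of them called. By genotype, St18 gave -0.057 without the 3 libraries of high yield and -0.019 to 0.107 without 1 library. Smad7 gave 0.0061 without nuclei of over 3 times the median UMIs, 0.0314 with thinned nuclei, 0.0057 without a filter and -0.162 to 0.061 without 1 library. Fth1 gave -0.0251, -0.0398 and -0.080 (those nuclei left out, thinned nuclei, 6 further exclusion genes), -0.0079 with the age-matched block, -0.0097 with the replicate block and -0.0999 to 0.0969 without 1 library. By region, in the same order of nuclei left out, thinned nuclei, exclusion genes and no filter, St18 gave -0.0287, -0.0238, -0.0373 and -0.0531 and Zeb2 gave -0.0263, -0.0400, -0.0182 and -0.0461; Srebf2 gave -0.0087 with nuclei left out, -0.0416 without a filter and -0.00059 with the mouse as a replicate block. Without 1 mouse these ran from -0.0532 to 0.041 (St18), -0.0482 to 0.0764 (Zeb2) and -0.0455 to 0.0499 (Srebf2). Depth sets a limit in that 16 of the 26 interferon and class I MHC genes were under the filter on low counts in the genotype fit.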

Other observations

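The called genes were spread unevenly over the chromosomes, which is given as a count without a test. Of the 44 genes called by genotype in cortical mature oligodendrocytes, 8 (18.2%) lie on chromosome 17, which holds 446 of the 9529 tested genes (4.68%). They are C4b, Alk, A330072L02Rik, H2-D1, Plin3 and Fbxl17, which rose, and Prrt1 and Ccnd3, which fell. Chromosome 6 holds 6 of the 44 (13.6%) and 478 of the tested genes (5.02%), among them the neighbours Parp12 and 4930599N23Rik. Pdgfb lies on chromosome 15, where none of 368 tested genes was called.

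The joint occurrence of C4b and H2-D1 was also counted in the other groups of thinned nuclei, as a description. In the mutant deep brain, H2-D1 was found in 6.90% of the 1116 nuclei with C4b and 4.00% of those without, higher beside C4b in 5 of 6 libraries. In the control deep brain it was found in 5.81% of the 344 nuclei with C4b and 2.43% of those without, in 6 of 6 libraries. In the control cortex, 8 of the 61 nuclei with C4b had H2-D1 (13.1%) and 2.99% of those without, higher beside C4b in 3 of 6 libraries. Rora was found more often in nuclei with Klk6 in the deep brain as well, in 32.2% against 18.6% of control nuclei and in 45.0% against 34.0% of mutant nuclei, each in 6 of 6 libraries. In the control cortex it was found in 23.2% of the 69 nuclei with Klk6 and 13.8% of those without, higher in 3 of 6 libraries. Beside Klk6, Ptgds was less often found there (34.8 against 74.9%) and in control (48.6 against 78.0%) and mutant deep brain (45.5 against 77.75%). So was Il33 (18.8 against 48.4%, 14.3 against 49.8% and 12.9 against 42.6%). In these groups, Ptgds and Cadps were more often found beside Il33 in 6 of 6 libraries. Beside C4b, Ptgds was less often found in control (71.8 against 76.45%) and mutant deep brain (71.15 against 76.8%). In control cortex it was not (77.05 against 73.5%).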
